A study of Mus musculus with 4 samples.

Results

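The cytosolic ribosomal protein genes were followed in mouse bone marrow cells with and without FLT3-ITD. Members were all genes whose platform symbol starts with Rpl or Rps and a digit, together with Rplp0, Rplp1, Rplp2 and Rpsa, and without the Rps6k kinases and pseudogenes. By symbol 78 probes of 60 genes met this, and 68 probes of 54 genes had a detection p-value under 0.05 on 2 or more of the 4 arrays, out of 9948 genes tested. The 54 genes hold 19 proteins of the small (40S) subunit, 28 of the large (60S) subunit, 6 paralogs (Rpl3l, Rpl7l1, Rpl22l1, Rpl36al, Rps27l and Rps4l) and Rps19bp1, which carries the prefix but encodes a binding partner of Rps19 and not a ribosomal protein.

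The study profiled total RNA of wild-type (WT) lineage-negative bone marrow cells, that is, marrow depleted of cells bearing markers of mature blood lineages. In 2 samples FLT3-ITD had signalled for 48 h, and 2 control samples carried the empty vector pMIG. The labels give no time for the control samples, so the groups may not be matched in time. FLT3-ITD is a receptor tyrosine kinase with an internal tandem duplication, found in acute myeloid leukaemia, and all 4 samples were WT. The labels give neither the promoter that drove FLT3-ITD nor the share of cells that carried a vector, and they do not say whether the replicates were separate animals or cultures. All p-values below therefore measure only how far these 4 samples spread, which may be technical error.

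Ribosomal proteins and ribosomal RNA make up the 2 subunits of the ribosome. The 40S subunit reads the messenger RNA, and the 60S subunit joins amino acids and passes the growing chain through an exit tunnel. Messages of ribosomal proteins typically begin with a 5′ terminal oligopyrimidine (TOP) tract, through which mTORC1, a kinase complex downstream of growth factor receptors, sets how strongly they are translated. The arrays measured the amount of each message and not its translation. In human blood, losses of single ribosomal protein genes cause Diamond-Blackfan anaemia, and loss of one RPS14 copy contributes to the anaemia of the 5q- syndrome.

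As a group, the ribosomal protein messages differed little between FLT3-ITD and control cells. The median log2 difference (FLT3-ITD minus pMIG) of the 54 genes was -0.04, against -0.02 for all genes tested. The difference was under 0.1 in size for 28 genes and under 0.2 for 40. It was negative for 38 genes and positive for 15, and Rpl41, the smallest ribosomal protein, stood at 0.00, but the negative count was 34 with scaling to a common median, 32 with cyclic loess and 30 without FLT3-ITD replicate 2. The median member signal was 13.37 and 13.40 (log2) with FLT3-ITD and 13.36 on both pMIG arrays, so the order of these medians was opposite to the sign of the median difference. Members held 8.39% and 8.29% of the summed normalized signal with FLT3-ITD, against 8.60% and 8.57% with pMIG. In raw intensity those shares were 7.80% and 7.60% against 7.58% and 7.81%, and the groups overlapped.

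By limma, 0 of the 54 genes passed an adjusted p of 0.05 (0.191% of all genes tested did, 0.171% as higher and 0.0201% as lower), and the smallest adjusted p was 0.181, for Rpl22. An unadjusted p under 0.05 was reached by 4 members, or 7.41%, against 18% of all genes tested. When limma's prior variance was allowed to follow the signal (a variance trend), 7 members passed, or 13%, against 10.2% of all genes. Rpl22, Rpl36a, Rps10, Rps15, Rpl4 and Rps14 were lower in FLT3-ITD and Rpl7l1 was higher. Of all genes tested, 5.17% passed with the trend as lower and 5.07% as higher. This share rose with brightness. Among other genes it was 5.05% under a mean log2 signal of 8 and 17.6% at 8 to 10. It was 20.6% at 10 to 12, 18.6% at 12 to 14 and 21.7% at 14 and over. At these levels, in the same order, 0 of 7, 1 of 4, 2 of 6, 3 of 20 and 1 of 17 members passed. The groups did not overlap for 26 members (48.1%), against 50.6% of all genes, with 18 members lower (33.3%, against 26.8%) and 8 higher (14.8%, against 23.8%). Among other genes at a mean log2 signal of 8 to 14, 32.8% to 34.7% were apart as lower and 26.5% to 29.7% as higher. At 14 and over both shares were 21.7%, and under 8 they were 22.7% and 21.6%. With 2 arrays a group, the smallest p of an exact permutation test is 0.333, and every call rests on the spread shared between genes. The count of 7 fell to 3 without FLT3-ITD replicate 1 (5.56%, against 4.68% of all genes) and to 4 (7.41%) without FLT3-ITD replicate 2, without pMIG replicate 1 or without pMIG replicate 2 (4.39%, 6.88% and 5.23% of all genes). The median difference of the members was -0.01 without FLT3-ITD replicate 2, -0.06 without FLT3-ITD replicate 1 and -0.06 without pMIG replicate 1.

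**Figure D1:**
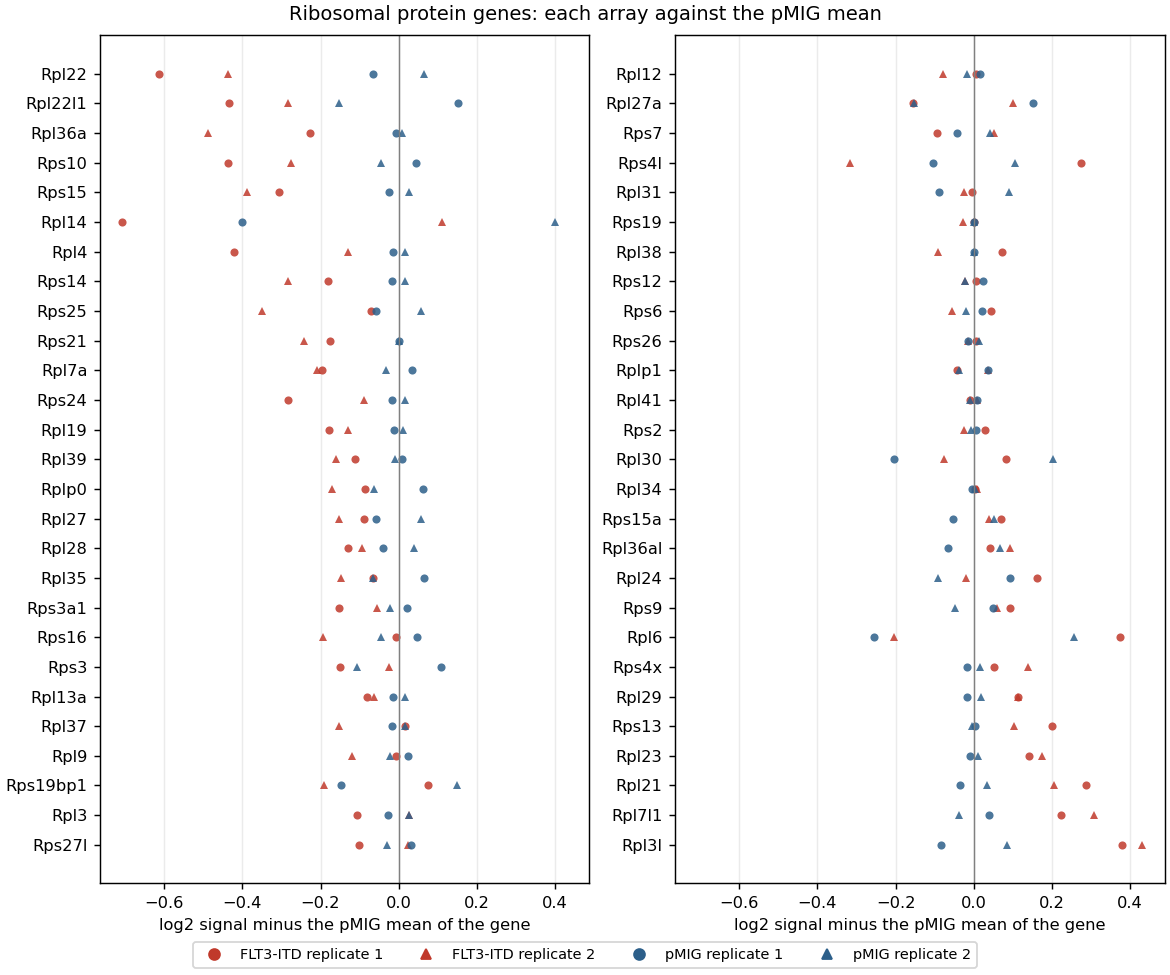
Log2 signal of each of the 54 genes on each array, minus the mean of the 2 pMIG arrays of that gene; red marks FLT3-ITD, blue marks pMIG, circles are replicate 1 and triangles replicate 2, and genes are ordered by difference from Rpl22 to Rpl3l. Both red points lie left of both blue points for 18 genes and right of them for 8, and most of the remaining genes cluster near 0.

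The largest difference was that of Rpl22, a 60S protein near the exit tunnel that binds RNA and whose loss accelerates T-cell lymphoma in mice. Its signal (probe ILMN_2659229) was 8.81 and 8.99 (log2) with FLT3-ITD and 9.36 and 9.49 with pMIG. Both FLT3-ITD arrays were below both pMIG arrays, by more than the replicates of either group differed. The mean was 8.90 ± 0.13 against 9.42 ± 0.09 (SD, n = 2), 1.44-fold lower in FLT3-ITD (log2 difference -0.52, SE 0.13, limma adjusted p = 0.181, or 0.00109 with the variance trend). In 13 of 15 alternative settings Rpl22 passed with the trend.

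Rps10 and Rps15 were the 40S members that passed with the trend most steadily. Rps10, a Diamond-Blackfan anaemia gene in humans, read 12.88 and 13.04 in FLT3-ITD against 13.36 and 13.28 in pMIG, a log2 difference of -0.36 (SE 0.12, limma adjusted p = 0.245, or 0.00205 with the trend). Rps15, which lies near the decoding site, read 12.72 and 12.64 against 13.00 and 13.05, a difference of -0.35 (SE 0.11, limma adjusted p = 0.227, or 0.00175 with the trend). In both genes the lower control array stayed above the higher FLT3-ITD array. Rps15 passed with the trend in 14 of 15 alternative settings and Rps10 in 12. Rps14, the mouse counterpart of the 5q- syndrome gene, read 14.28 and 14.18 against 14.44 and 14.48, with no overlap and a difference of -0.23 (SE 0.11). Its limma adjusted p was 0.355, or 0.0392 with the trend, and it passed with the trend in 6 of 15 settings.

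Among the other 60S proteins, Rpl36a and Rpl4 also passed with the trend. Rpl36a, which is encoded on the X chromosome, read 12.75 and 12.49 in FLT3-ITD against 12.97 and 12.99 in pMIG, a log2 difference of -0.36 (SE 0.14). Its FLT3-ITD replicates differed from each other by more than its controls did, but neither reached the controls (limma adjusted p = 0.278, or 0.00345 with the trend). Without FLT3-ITD replicate 2 the difference was -0.23 and the call with the trend was lost. Rpl4, which helps line the exit tunnel, read 10.88 and 11.17 against 11.28 and 11.32, a difference of -0.28 (SE 0.14, limma adjusted p = 0.388, or 0.0393 with the trend). The call for Rpl4 was held in 8 of 15 settings and was lost without FLT3-ITD replicate 1, without pMIG replicate 1 and without pMIG replicate 2. The Rpl4 difference was -0.13 without FLT3-ITD replicate 1, -0.42 without FLT3-ITD replicate 2 and -0.10 with the mean of its probes, of which the second, near background, differed by 0.08. Leaving out FLT3-ITD replicate 1 also ended the trend call of Rpl22 and of Rps10, and leaving out any 1 array ended that of Rps14.

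**Figure D2:**
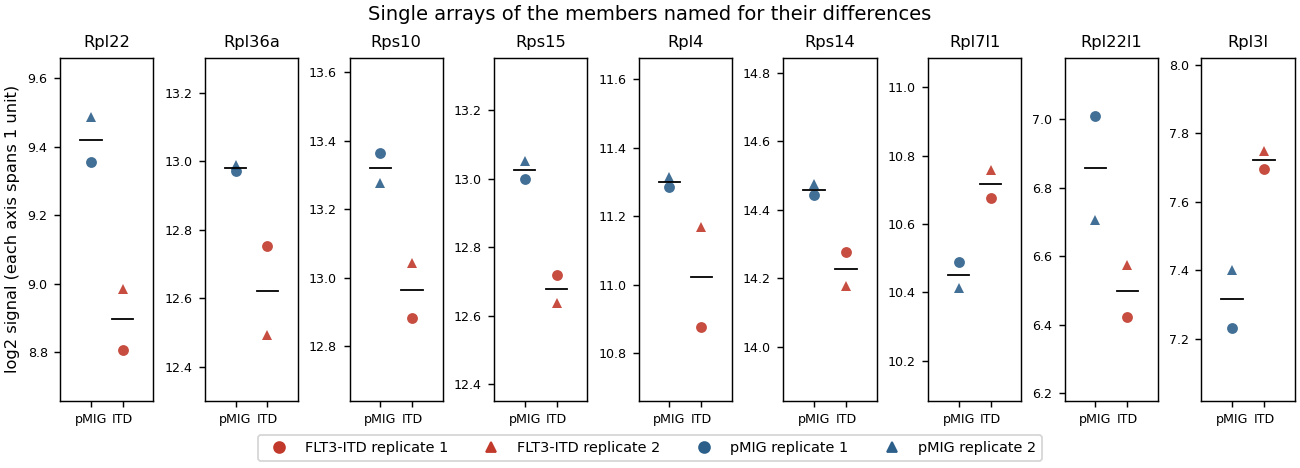
Log2 signal on each array for 9 members named for their differences, with pMIG in blue and FLT3-ITD (ITD) in red, circles for replicate 1, triangles for replicate 2 and a line at each group mean (n = 2). Each axis spans 1 log2 unit but starts at a different level, and in all 9 genes the groups do not overlap.

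The paralogs did not share a direction. Of the 6 tested, 3 differences were positive and 3 negative, with a median of 0.02. Rpl7l1, a relative of Rpl7 that acts in the assembly of the large subunit, read 10.68 and 10.76 in FLT3-ITD against 10.49 and 10.41 in pMIG on its brighter probe. Those groups were apart and the difference was 0.27 (SE 0.11, limma adjusted p = 0.310, or 0.0357 with the trend). Its second detected probe differed by -0.20, with FLT3-ITD lower, and with the mean of both probes the difference was 0.03. Leaving out any 1 array ended the trend call of Rpl7l1. Rpl3l, the striated-muscle paralog of Rpl3, read 7.70 and 7.75 against 7.23 and 7.40, the largest positive difference among the members (0.41, SE 0.12). It did not pass by limma (adjusted p = 0.213, or 0.0919 with the trend), although its groups were apart.

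Rpl22l1, the paralog of Rpl22, read 6.42 and 6.58 in FLT3-ITD against 7.01 and 6.71 in pMIG, a log2 difference of -0.36 (SE 0.15, limma adjusted p = 0.314, or 0.285 with the trend). Without pMIG replicate 1 it was -0.21, and with no background correction -0.20. In mice the Rpl22 protein is known to hold down Rpl22l1 expression. Here both genes read lower in FLT3-ITD, and neither passed without the variance trend. Rpl36al, a close paralog of Rpl36a, differed by 0.07, with overlapping arrays (13.36 and 13.41 against 13.26 and 13.39). Rps27l, which is a p53 target in human cells, differed by -0.04 and Rps4l by -0.02. Rps19bp1 differed by -0.06, and its arrays overlapped.

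After Rpl22l1, the next negative differences among members that did not pass, with the groups apart, were those of Rps25 (-0.21), a 40S protein needed for some forms of internal initiation, and Rps21 (-0.21). For Rps25 the difference was -0.07 without FLT3-ITD replicate 2 and -0.35 without FLT3-ITD replicate 1. Rps21 read 14.01 and 13.95 in FLT3-ITD and 14.19 on both pMIG arrays (limma adjusted p = 0.387, or 0.0625 with the trend). On the positive side with the groups apart stood Rpl21 (0.25), Rpl23 (0.16), Rps13 (0.15), Rpl29 (0.11), Rps4x (0.10) and Rps9 (0.08). Of these Rpl21 was among the 3 dimmest members, with raw values of 142.7 and 145.9 in FLT3-ITD against 141.5 and 132.9 in pMIG. The Rpl21 difference was 0.11 with no background correction, and its limma adjusted p was 0.332, or 0.601 with the trend. Rpl23, which can bind and inhibit Mdm2, read 14.63 and 14.66 against 14.48 and 14.49 on its brightest probe. With the mean of its probes Rpl23 differed by -0.06, and Rpl21 by 0.06. In the main settings none of these genes passed with or without the trend. Rps21 passed with the trend in 3 of 15 alternative settings. Rpl24 differed by 0.07, with overlapping arrays.

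Several of the best known members were nearly level on their brightest probe. Rps19, the gene most often mutated in Diamond-Blackfan anaemia, read 14.66 and 14.63 in FLT3-ITD and 14.66 on both pMIG arrays on its brighter probe. That was a difference of -0.01 with a 95% interval of -0.29 to 0.26 (0.03 with median scaling). The second, dimmer Rps19 probe read 5.92 and 6.06 against 6.24 and 6.18, a difference of -0.22 with the groups apart. Rps6, the substrate of the S6 kinases, read 13.59 and 13.49 against 13.57 and 13.53, a difference of -0.01 (95% interval -0.30 to 0.29), or -0.09 with median scaling, -0.11 with no normalization and -0.06 with cyclic loess. Rpl13a, a common reference gene for qPCR, read 11.26 and 11.28 against 11.32 and 11.35, a difference of -0.07 (95% interval -0.35 to 0.21). In Rps19, on its brighter probe, and in Rps6 the groups overlapped or touched, and in Rpl13a they were apart by less than 0.1. Rplp0, the anchor of the ribosomal stalk that recruits translation factors, differed by -0.13 (95% interval -0.44 to 0.18), and Rplp1, its stalk partner, by -0.00, or 0.13 with median scaling and 0.14 with cyclic loess.

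By role, the 19 proteins of the 40S subunit had a median difference of -0.02, with 14 negative, and the 28 of the 60S subunit -0.05, with 20 negative. The order of the subunits turned with median scaling (40S -0.09 and 60S -0.05), no normalization (-0.11 and -0.07), cyclic loess (-0.06 and -0.03) and the mean of the probes (-0.08 and -0.06). The negative 40S genes numbered 11 with median scaling, with cyclic loess or without pMIG replicate 1, and 10 without FLT3-ITD replicate 2. All 8 tested genes of human Diamond-Blackfan anaemia (Rps7, Rps10, Rps19, Rps24, Rps26, Rpl27, Rpl31 and Rpl35) had negative differences, with a median of -0.06, but 6 were negative with median scaling or cyclic loess and 5 without pMIG replicate 2. Of these only Rps10 passed, and only with the variance trend. The 6 tested proteins near the exit tunnel (Rpl4, Rpl19, Rpl22, Rpl31, Rpl35 and Rpl39) were likewise all negative, with a median of -0.15, and remained so with median scaling, no normalization and cyclic loess, while 5 were negative with the mean of the probes or without pMIG replicate 2. Of the 6 genes, 2 of them (Rpl22 and Rpl4) passed with the trend. Of all 9948 genes tested, 5263 were negative.

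The probes of this family lay high on the array's scale. A mean log2 signal of 12 or more was reached by 37 of the 54 genes and of 14 or more by 17, which was 42.5% of the genes tested at that level. Signals of different probes depend on the probe and do not rank the messages. The family also varied less than other genes. Its median absolute difference between replicates was 0.09 in FLT3-ITD and 0.06 in pMIG, against 0.16 for all genes in either group, and between groups it was 0.12 to 0.13, against 0.22 to 0.23. At like brightness members did not vary less throughout. The median absolute difference between group means at 14 and over was 0.06 for members and 0.06 for the other 23 genes. At 12 to 14 it was 0.11 for both. It was 0.15 for members against 0.13 at 10 to 12, 0.09 against 0.15 at 8 to 10 and 0.25 against 0.22 under 8. Signals near the top of the range may be compressed, which was not tested. The highest raw member value was 36433, where the highest of any probe was 37709.9.

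**Figure D3:**
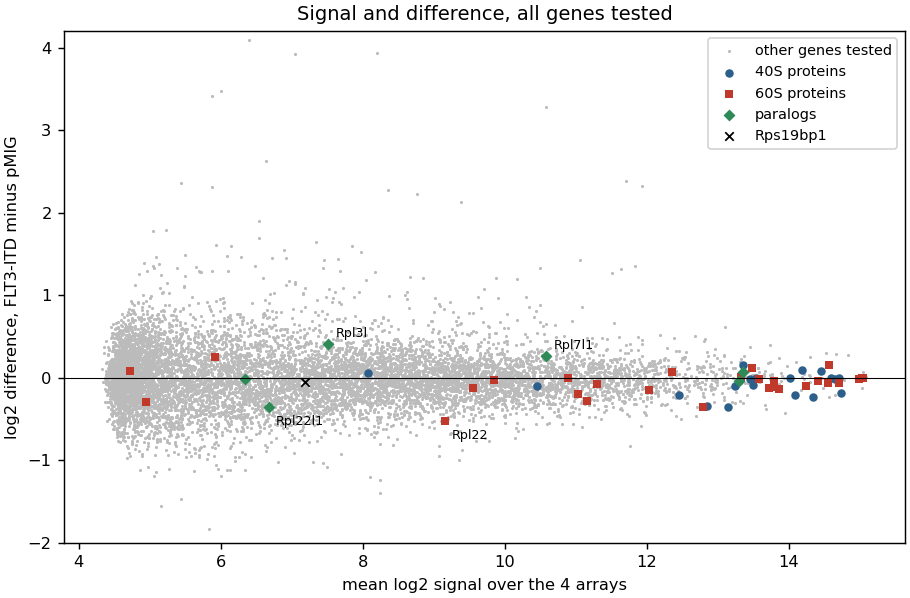
Log2 difference (FLT3-ITD minus pMIG) against the mean log2 signal over the 4 arrays for the 9948 genes tested, with 40S proteins as circles, 60S proteins as squares, paralogs as diamonds and Rps19bp1 as a cross. Members gather at the right, within about the same narrow band as other bright genes, and the members with the largest differences, Rpl22 and Rpl3l, lie at lower signal.

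Dim members were poorly measured. Rpl14 read 4.40 and 5.21 in FLT3-ITD against 4.70 and 5.50 in pMIG and was detected on 3 arrays. Its difference of -0.30 had a 95% interval of -1.33 to 0.74, so that its sign was not resolved. Rpl6 was detected on 2 arrays and differed by 0.09 (95% interval -0.64 to 0.81). Another 6 genes by symbol were left out because no probe was detected on 2 arrays: Rpl17, Rpl39l, Rplp2, Rps23, Rps23rg1 and Rpsa. One of the Rpsa probes read a raw 129.4 on FLT3-ITD replicate 1, where it was detected, and 97.4, 107.2 and 100.1 on the other arrays. Of 77 core ribosomal proteins listed, 26 had no probe under their symbol, among them Rpl5 and Rpl11, the partners of Mdm2, and they were not analysed here.

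Of the 54 genes, 13 were read by more than 1 detected probe, and the probes did not always agree in size or sign. Over probes, 0 of 68 passed by limma (0.106% of the 14178 detected probes did), and 7 passed with the trend, against 7.94% of all probes. One of these was the second probe of Rps3, a 40S protein at the messenger RNA entry site, which read 11.57 and 11.54 in FLT3-ITD against 12.07 and 11.96 in pMIG. That probe differed by -0.46 with the groups apart, where the brighter Rps3 probe differed by -0.09 with overlap. Rpl21 had a second detected probe that differed by -0.13 with overlap, against 0.25 on the brighter one. The second Rpl31 probe differed by 0.21 with the groups apart, against -0.01 on the brighter one, which stood for Rpl31 in the lists by role. The 2 Rplp0 probes differed by -0.65 and -0.13, and the larger difference came from the probe near background. Rpl23 had 3 detected probes, of which the brightest differed by 0.16 and the others by -0.18 and -0.14, and in each of the 3 the groups were apart. By name, 39 of the 54 genes have at least 1 pseudogene in RefSeq (202 in all). Whether a probe also reads such copies was not tested.

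**Figure D4:**
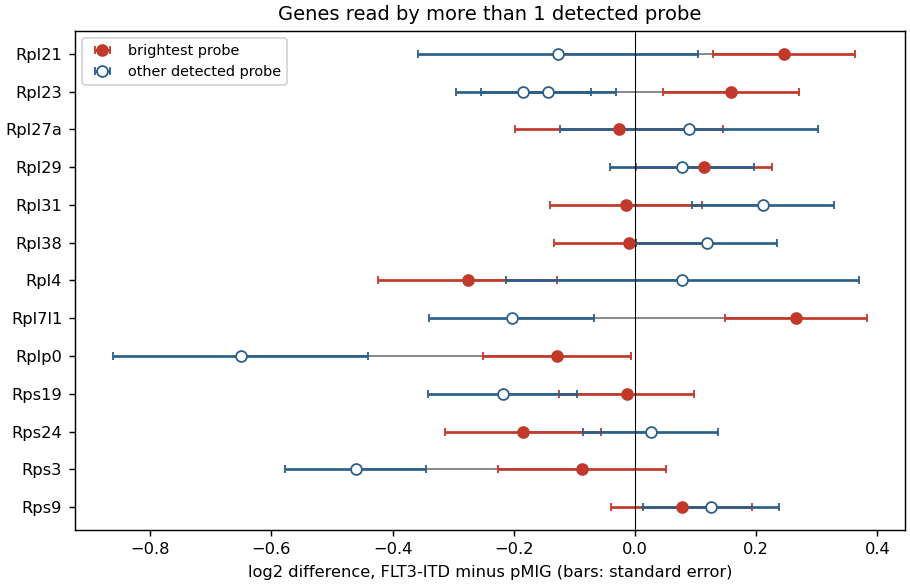
Log2 difference (FLT3-ITD minus pMIG) with its limma standard error for each detected probe of the 13 genes read by more than 1, with filled points for the brightest probe and open points for the others. Probes of Rpl4, Rpl7l1, Rpl21, Rpl23, Rpl27a, Rpl31, Rpl38 and Rps24 lie on opposite sides of 0, and for Rps3, Rps19 and Rplp0 the second probe lies further below 0.

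Ribosomal protein messages are known for starting within a pyrimidine tract, so promoter windows are shown for 6 of the 7 members that passed with the trend, for Rpl22l1 as the paralog of Rpl22 and for Rps6 as a nearly level member. The windows come from RefSeq (GRCm38.p6) and hold 45 bases before and 30 bases from the listed start, 5′ to 3′ on the gene's strand, with the longest run of C and T in capitals. Rpl22 has 2 listed starts, and the one with the longer run is given.
Rpl22, chr4:152325681-152325755, plus strand: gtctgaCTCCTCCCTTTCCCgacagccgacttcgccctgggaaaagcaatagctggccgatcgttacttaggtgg
Rpl22l1, chr3:28805463-28805537, plus strand: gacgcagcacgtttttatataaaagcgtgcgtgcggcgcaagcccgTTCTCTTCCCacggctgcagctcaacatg
Rps10, chr17:27635215-27635289, minus strand: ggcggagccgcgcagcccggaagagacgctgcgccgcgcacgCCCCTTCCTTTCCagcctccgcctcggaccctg
Rps15, chr10:80292386-80292460, plus strand: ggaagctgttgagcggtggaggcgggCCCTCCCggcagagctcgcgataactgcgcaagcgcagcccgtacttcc
Rpl36a, chrX:134585609-134585683, plus strand: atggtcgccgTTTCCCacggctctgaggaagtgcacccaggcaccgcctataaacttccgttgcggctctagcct
Rpl4, chr9:64173342-64173416, plus strand: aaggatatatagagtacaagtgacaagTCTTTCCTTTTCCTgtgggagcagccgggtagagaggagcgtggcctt
Rpl7l1, chr17:46782627-46782701, minus strand: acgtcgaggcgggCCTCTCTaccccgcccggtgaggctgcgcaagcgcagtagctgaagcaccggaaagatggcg
Rps6, chr4:86857338-86857412, minus strand: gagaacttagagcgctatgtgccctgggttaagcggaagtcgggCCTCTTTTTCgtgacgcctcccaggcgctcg

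In Rps10 and Rps6 the run spans the listed start, in Rpl22l1 it begins just after it, and in Rpl22, Rps15, Rpl36a, Rpl4 and Rpl7l1 it ends before it. Listed starts were found for 47 of the 54 members. A C followed by 4 pyrimidines stood exactly at a listed start of 8 members (17.0%), against 2.81% of the other genes tested and 3.01% of all genes with a listed start. A run of 8 or more pyrimidines, on the strand of the gene, lay in the window of 57.4% of members, against 32.0% of the other genes tested and 31.8% of all. On both strands of the full 300-base promoter the ETS-type motif CCGGAAG was found for 40.4% of members, against 19.4% and 9.93%, and the E-box CACGTG for 12.8%, against 11.6% and 8.09%. The letters TATAAA were found for 12.8% of members, against 9.59% and 15.7%. A match is a description of these letters and not a bound site, and no match says only that the letters are not in the window.

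The members whose listed start had the C and 4 pyrimidines were Rps10, Rpl14, Rps21, Rpl28, Rpl35, Rpl38, Rps6 and Rps15a. Their median difference was -0.11, against -0.04 for the other 39 with a listed start. Their differences ran from -0.36 for Rps10 to 0.05 for Rps15a, within the range of all members, and Rps10 alone of the 8 passed with the trend.

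Other genes of ribosome production and translation were read beside the members. Of 40 ribosome biogenesis factors tested, 0 passed by limma and 2 were higher and 1 lower with the variance trend (7.5%, against 10.2% of all genes tested), with a median difference of 0.03. The higher ones were Pa2g4 (0.49), a nucleolar growth regulator, and Imp4 (0.30), part of the small-subunit processome, and the lower one was Ddx21 (-0.38), a nucleolar helicase. Of 9 genes of RNA polymerase I and 5S transcription, Polr1c, a subunit shared by polymerases I and III, was lower with the trend (-0.43), and the list's median was 0.03. Among 26 initiation factors 1 was higher (Eif2s3x, 0.33) and 2 were lower with the trend, of which Eif4g2, an eIF4G relative, had the largest difference (-0.93, limma adjusted p = 0.154). Among 9 elongation factors Eef2, the translocase, was higher (0.29) and Eef2k, the kinase that inhibits it, lower (-0.73), both with the trend only.

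Among 15 TOP messages that encode no ribosomal protein, 2 were higher and 1 lower with the trend. Vim, which encodes vimentin, differed by 0.67, Pabpc1, the poly(A)-binding protein, by -0.25, and the median of the list was -0.00. Of 11 genes of the S6 kinases and mTORC1, Rps6ka3, a ribosomal S6 kinase of the RSK family, was higher with the trend (0.74), while Pdcd4, a translation inhibitor degraded after S6 kinase phosphorylation, differed by -0.55 and did not pass. Of 9 genes of Mdm2 and p53 targets, Sesn2 (0.72) and Cdkn1a (0.41), a cell cycle inhibitor, were higher with the trend, and the median was 0.17. The shares passing with the trend were 11.1% for polymerase I and 5S genes, 11.5% for initiation factors, 22.2% for elongation factors, 20% for TOP messages, 9.09% for S6 kinase and mTORC1 genes and 22.2% for Mdm2 and p53 targets, against the same 10.2%, and all but the initiation factors rest on lists of 15 genes or fewer. By limma without the trend, 0 genes of any of these lists passed, where 0.191% of all genes tested did.

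Markers of several other cell types moved with the groups. Sums below are of normalized signal above the lowest value in the data. The 6 tested dendritic and MHC class II markers summed to 12917.5 and 13004.7 in FLT3-ITD against 5189.3 and 5516.1 in pMIG, with 4 higher with the trend. The 5 tested B lymphoid markers summed to 1359.8 and 1418.8 against 701.3 and 717.3, with 4 higher. The 6 mast cell and basophil markers summed to 6740.3 and 6826.9 against 10240.2 and 9967.4, with 4 lower, and the 7 megakaryocyte markers to 1774.8 and 2000.6 against 2701.4 and 2519.8, with 5 lower, of which Treml1 also passed without the trend. Among 10 neutrophil markers 2 were higher and 5 lower with the trend (sums 148895.7 and 149055.6 against 152230.6 and 151523.2). The shares passing with the trend were 66.7%, 80%, 66.7%, 71.4% and 70%, in the order given, against 10.2% of all genes tested.

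Of 7 monocyte and macrophage markers 3 were higher with the trend (42.9%, against 10.2% of all genes tested). Their sums overlapped (8305 and 9343 against 9288.3 and 8606). Of 9 erythroid markers 2 were higher (22.2%), but 5 differences were negative and the sums overlapped (4601.7 and 4737.5 against 4299.3 and 4613.9). Of 6 stem and progenitor markers 2 were lower (33.3%), and of 5 stromal markers 1 was higher (20%). Of 3 T and NK markers 1 was higher and 1 lower (66.7%), with lower sums in FLT3-ITD (3069.4 and 3142.3 against 3798.1 and 4439.3). The higher one, Klrd1, a receptor of natural killer cells, differed by 1.90 and also passed by limma without the trend (adjusted p = 0.0482). Probes of Cd3e, Cd4 and Cd8a (T cells), Pax5 (B cells), Flt3, Xcr1, Ccr2, Alas2, Cdh5 and Col1a1 did not meet the detection filter, so the mouse Flt3 probe gives no check of the construct. Kit and Ly6a, markers of progenitors, were not analysed here. Of 9 handling and heat shock genes 6 were higher and 1 lower with the trend (77.8%), with a median of 0.42. Of 8 reference genes 1 (Actb) was higher (12.5%, against 10.2% of all genes tested), with a median of -0.03. The part of cell composition or handling in the differences of the ribosomal protein genes was not tested, and in these bulk samples fewer cells of a type and less RNA per cell cannot be told apart.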

How the data were processed

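Total RNA of 4 samples, 2 FLT3-ITD and 2 pMIG by their titles, was labelled with biotin and hybridised to Illumina arrays, per the labels' protocols. Per the file headers, the authors deposited, for 26512 probes, the non-normalized intensity and its detection p-value on every array. The scanner software is not given in the sources used here. A second deposited table holds processed log2 values whose making is not stated. Their order within each array matched that of the intensities (rank correlation 1), the largest gap to the log2 values computed here was 0.232, array medians were 4.79, 4.79, 4.80 and 4.79, and the table served only as an alternative.

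Background was removed with the normexp model of limma 3.58.1 (R 4.3.3, statmod 1.5.0) from the detection p-values with an offset of 16, followed by quantile normalization and log2. Between 51.5% and 53.5% of probes were detected on each array, the median raw intensity was 103.1 to 107.9, and 2 arrays a group limit the precision. Probes detected on 2 or more arrays were kept (14178), and the probe of highest mean signal stood for its gene. Gene names came from the platform annotation, where 24279 probes had a symbol and 2233 were not listed with one. The 2 groups were set against each other in a two-sided limma fit (lmFit, eBayes), with Benjamini-Hochberg adjustment over all 9948 genes and a threshold of 0.05, and a second time with a variance trend.

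The members and all lists were chosen with earlier results of these data known. Named members were those with the 10 largest differences in each direction, those that passed, the paralogs and Rps19bp1, the 3 brightest and 3 dimmest, those whose probes differed by over 0.5, and Rps6, Rps19, Rps14, Rplp0, Rpl13a and Rpl22, and of every other list up to 4 genes of smallest p. Other members are named where a role, a listed start or a probe made them part of a short list, and the second Rps3 probe was chosen after its values were seen. The alternatives changed normalization, background, filter, probe choice, prior, replicate block and the arrays used. Quantile normalization after log2 was chosen after seeing the data. Promoter windows came from RefSeq (GRCm38.p6).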

Additional observations from a re-analysis of the deposited data

How the results depend on the processing

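With 2 arrays a group, the count of ribosomal protein genes passing rests on the prior variance. It was 0 without a variance trend and 7 with it (13%, against 10.2% of all genes). With the trend and a robust fit it was 8 (14.8%, against 10.5%). Without a trend it was 4 with no background correction (7.41%, against 9.01% of all genes) and 1 with an offset of 50 (1.85%, against 3.89%). Among probes the count was 0, and 7 with the trend, where 7.94% of all probes passed. It was 8 with the trend and a robust fit and 5 with no background correction, where the share of all probes was not computed. The count of 7 with the trend became 4 with scaling to a common median (7.41%, against 5.16% of all genes), 2 with no filter on dim probes (3.33%, against 2.61%), 0 with no normalization between arrays (1.98% of all genes), and 3 to 4 when 1 array was left out, where a group of 1 array is assumed to vary like the other. The median difference of -0.04 was -0.0525 with median scaling and -0.0766 with no normalization, where the median of all genes was -0.06, and -0.0596 to -0.00836 with 1 array left out. The causes were not tested. No value of a named member that passed changed sign. Median scaling and cyclic loess turned Rpl38 (0.13 and 0.15), Rplp1 and Rps19 positive and moved Rpl41 from 0.00 to 0.12 and 0.13. With all 4 arrays, the number of all genes passing without the trend was 19 and ran from 6 to 896 over the alternatives. With the trend that number was 1018 and ran from 197 to 1224. Samples with the same replicate number did not deviate together (r = -0.02 over all genes). That correlation cannot show whether such samples shared an animal or culture, which the labels do not say. With the replicate block 0 members passed, where 6 of all genes did, and with the trend 6 members passed (11.1%, against 12.3% of all genes).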

Other observations

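Proteins of the mitochondrial ribosome, which translates the messages of the mitochondrial genome, are encoded by other nuclear genes and were read by the same arrays. Of 70 such genes tested, 0 passed by limma without a variance trend, where the unadjusted p was under 0.05 for 4 (5.71%, against 18% of all genes tested). With the trend 1 was higher and 5 were lower in FLT3-ITD, together 8.57%, against 10.2% of all genes. The median log2 difference was -0.07 and 49 of the 70 differences were negative (70%), against 52.9% of all genes tested and 38 of 54 for the cytosolic family. The one higher with the trend was Mrps6, which read 8.72 and 8.76 in FLT3-ITD against 8.34 and 8.33 in pMIG. Mrps26, at 10.12 and 10.07 against 10.40 and 10.44, and Mrps31, at 10.61 and 10.49 against 10.90 and 10.84, were both lower with the trend, with the groups apart.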
